A study of Homo sapiens with 6 samples.

Results

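TNIK, NRK, MINK1, MAP4K4, MAP4K3, MAP4K5 and MAP4K2 are protein kinases of the germinal centre kinase group, and their mRNAs were followed here in Cisplatin-treated kidney cells with and without a knockdown of the RNA acetyltransferase NAT10. The 7 genes were taken by symbol from the deposited count table, which lists every annotated gene. They were chosen by kinship and with their difference between the same 6 libraries already known, so that difference is described with no test of it, and calls by the fit of all genes appear only beside the share of all genes called. Cells of HK-2, an established line derived from human proximal tubule, all received Cisplatin, and the study's methods select 20 μM for 24 hours in this line. The CP+siNC group received a negative control siRNA and the CP+siNAT10 group an siRNA against NAT10, with 3 bulk stranded mRNA libraries in each group and no group without Cisplatin. Nothing beyond the cell numbers 1 to 3 in the labels says that replicates are separate cultures, so the spread between them may be technical.

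Germinal centre kinases are relatives of yeast Ste20. Many of them act at the top of mitogen-activated protein kinase cascades, where a MAP4K switches on a MAP3K, which in turn switches on MKK4 or MKK7 and then JNK, a kinase that tubule cells activate under toxic stress. TNIK, MINK1, MAP4K4 and NRK form group IV, with a kinase domain at the N-terminus and a citron homology domain at the C-terminus. They lie close to the cytoskeleton and to Rap2 GTPases, and several MAP4Ks also phosphorylate the LATS kinases of the Hippo pathway beside STK3 and STK4.

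Summed over genes, CP+siNC replicates 1 to 3 held 19321665, 21602988 and 19464027 counts, and CP+siNAT10 replicates 1 to 3 held 20793709, 21531774 and 25192736 counts. Counts are given below as they were deposited, or as counts per 1000000 reads (CPM), with library sizes scaled by the trimmed mean of M-values. A gene was tested if it passed a filter on low counts, which 19874 genes did, all 7 kinases among them. No kinase was low by the limit of 10 counts in 3 libraries. The lowest was MAP4K2, with at least 99 counts in each library, and its blood cell relative MAP4K1, which was not a member, lay on the other side of that limit with 2 to 6 counts.

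NAT10, the targeted gene, had 75.8, 71.4 and 73.2 CPM in the CP+siNC libraries and 41.3, 40.5 and 42.5 CPM in the CP+siNAT10 libraries. All libraries of the knockdown lay below all control libraries, in the direction of their labels. NAT10 fell by 0.82 ± 0.04 on the log2 scale (standard error, n = 3 per group, edgeR adjusted p = 2.79e-15), which left NAT10 mRNA at a fraction of 0.565 of the control level.

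The cell type was compared with marker genes. The epithelial keratin KRT8 was abundant, at a mean of 1455 CPM in CP+siNC and 1450 CPM in CP+siNAT10, while CDH1, which encodes E-cadherin, had 0 to 2 counts in every library. Of 12 proximal tubule markers, 7 had fewer than 10 counts in every library, among them LRP2 and CUBN, and SLC22A6 had none in any library. HNF4A, a transcription factor of that segment, had 1 to 10 counts. The libraries therefore held an epithelial line without most transcripts that define the proximal tubule. The 12 markers summed to 47.7, 48.0 and 45.3 CPM in CP+siNC and 43.4, 40.6 and 42.6 CPM in CP+siNAT10, with GGT1 the most abundant. The 6 epithelial markers summed to 2029, 2049 and 1995 CPM and to 1960, 1948 and 1979 CPM, with KRT8 the most abundant. The 4 fibroblast markers summed to 11.1, 12 and 10.8 CPM and to 13.6, 16.4 and 13.5 CPM, nearly all from COL1A1, while DCN had at most 1 count. The 4 endothelial markers had fewer than 10 counts in every library. The 4 leukocyte markers summed to between 1.4 and 2.47 CPM, with CD14 the most abundant and PTPRC at 7 to 29 counts, and the 6 markers of other nephron segments stayed under 10 counts. Sums hide changes in single markers. PAX8 was higher by 0.59 ± 0.06, EPCAM by 0.31 ± 0.07, COL1A1 by 0.38 ± 0.09 and SLC5A2 by 0.31 ± 0.09 on the log2 scale, while KRT18 was lower by 0.36 ± 0.03, GGT1 by 0.28 ± 0.05 and SLC3A1 by 0.99 ± 0.20 (edgeR adjusted p at most 0.00363). With glmTreat, EPCAM, COL1A1, SLC5A2 and GGT1 were not called. PTPRC was called higher too, at 0.96 ± 0.38 (edgeR adjusted p = 0.0411). Its call was lost with DESeq2, limma-voom and glmTreat, and when CP+siNAT10 replicate 2 or any CP+siNC library was left out. The part of these shifts in the values of the kinases was not tested.

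TNIK, a group IV kinase known as a partner of TCF7L2 in Wnt signalling and of Rap2 at the cytoskeleton, lies on chromosome 3 from 171058414 to 171460063 (GRCh38, minus strand). It had 255, 323 and 276 counts in the CP+siNC libraries and 664, 812 and 819 counts in the CP+siNAT10 libraries. On the CPM scale these were 13.5, 15.1 and 14.3 against 31.5, 37.2 and 32.3. The groups did not overlap, and the lowest knockdown library held 2.09 times the CPM of the highest control library. Within the knockdown, replicate 2 stood above the other two. The log2 fold change was 1.23 ± 0.07 (standard error, n = 3 per group), or 2.34-fold higher in CP+siNAT10. In bulk libraries, a change in the number of cells that express a gene and a change in the RNA per cell cannot be told apart, here or for the other kinases.

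NRK moved the other way. This X-linked member of group IV is best known from the placenta, where it restrains the growth of trophoblast. It lies on chromosome X from 105822539 to 105958610 (plus strand), with 1914, 2248 and 2054 counts in CP+siNC and 956, 1023 and 1111 counts in CP+siNAT10. The CPM values were 101.6, 105.0 and 106.6 against 45.4, 46.8 and 43.8. Every knockdown library lay below every control library, and the lowest control library was 2.17 times the highest knockdown library. NRK was lower by 1.205 ± 0.04 on the log2 scale, a 2.30-fold difference, which is larger than the fall of NAT10 itself in the same libraries.

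The promoters of the group IV genes are shown because TNIK, MINK1 and MAP4K4 lay on the higher side and NRK on the lower side in the same libraries. All 7 kinases had an entry in the RefSeq promoter table (GRCh38.p14), which covers 250 bases before to 50 bases after each start; the 280 bases printed end 30 bases after the start, and for TNIK and MAP4K4, which have 2 entries each, the entry listed at the top of the table was used. Capitals mark GGGCGG, the GC box, and CCAAT, the CCAAT box, on either strand. In order, the windows are chr3:171460379-171460658 on the minus strand for TNIK, chrX:105822289-105822568 on the plus strand for NRK, chr17:4833090-4833369 on the plus strand for MINK1 and chr2:101697457-101697736 on the plus strand for MAP4K4. The RefSeq start is the outer end of the counted gene for NRK and MINK1, but lies 345 bases outside the counted gene for TNIK and 857 bases inside it for MAP4K4. For MAP4K3, MAP4K5 and MAP4K2 it lies 138 bases outside, 28557 bases inside and 39 bases outside.
TNIK: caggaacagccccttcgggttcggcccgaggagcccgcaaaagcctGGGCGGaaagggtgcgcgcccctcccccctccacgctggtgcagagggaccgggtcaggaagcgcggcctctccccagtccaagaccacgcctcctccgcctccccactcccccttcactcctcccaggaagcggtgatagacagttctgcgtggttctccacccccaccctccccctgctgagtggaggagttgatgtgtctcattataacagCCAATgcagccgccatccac
NRK: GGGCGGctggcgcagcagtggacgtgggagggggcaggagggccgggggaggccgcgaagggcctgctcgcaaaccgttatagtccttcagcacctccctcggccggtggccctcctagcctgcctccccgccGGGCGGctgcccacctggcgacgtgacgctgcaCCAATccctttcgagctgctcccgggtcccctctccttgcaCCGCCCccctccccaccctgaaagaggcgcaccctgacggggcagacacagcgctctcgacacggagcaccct
MINK1: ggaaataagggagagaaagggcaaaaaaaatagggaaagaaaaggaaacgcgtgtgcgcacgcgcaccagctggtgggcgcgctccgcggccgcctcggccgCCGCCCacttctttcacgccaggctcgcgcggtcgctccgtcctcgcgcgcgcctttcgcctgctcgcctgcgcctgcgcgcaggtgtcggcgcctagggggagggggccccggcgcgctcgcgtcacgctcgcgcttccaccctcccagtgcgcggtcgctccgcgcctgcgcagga
MAP4K4: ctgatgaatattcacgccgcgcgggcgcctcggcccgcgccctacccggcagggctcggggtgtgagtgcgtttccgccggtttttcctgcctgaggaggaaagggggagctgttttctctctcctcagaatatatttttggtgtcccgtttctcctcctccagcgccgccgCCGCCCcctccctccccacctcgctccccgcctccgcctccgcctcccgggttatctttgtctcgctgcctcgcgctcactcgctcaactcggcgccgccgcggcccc

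Every one of the 7 kinases had GGGCGG in its whole window of 300 bases, against 45.0% of all 35116 promoters. There was 1 match each for TNIK, MINK1, MAP4K4 and MAP4K3, with 3 each for NRK and MAP4K5 and 7 for MAP4K2. CCAAT stood in the TNIK and NRK windows only, 11 bases after the TNIK start and 84 bases before the NRK start, and in 34.6% of all promoters. None of the 7 windows held the TATA box TATAAA (11.5% of all promoters), the AP-1 motif TGANTCA (7.71%), the cyclic AMP motif TGACGTCA (1.85%), the TCF/LEF motif ATCAAAG (2.62%) or the TEAD motif GGAATG (14.0%). The windows of the 7 genes were rich in G and C, from 64.3% in TNIK to 81.7% in MAP4K2 against a median of 58.7%. TNIK with 17 and NRK with 25 CG dinucleotides had the fewest, and MINK1 and MAP4K2 had 45 each, where the median promoter had 14. These matches describe the letters of a window and say nothing about binding.

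MINK1 and MAP4K4 are the closest relatives of TNIK. MINK1 is known for roles in cell adhesion and in stress signalling to JNK and p38, and lies on chromosome 17 from 4833340 to 4897287. It had 87.6, 93.3 and 88.5 CPM in CP+siNC and 141.8, 144.2 and 133.4 CPM in CP+siNAT10. The groups were apart, with the lowest knockdown library at 1.43 times the highest control library, and the log2 fold change was 0.64 ± 0.04, or 1.55-fold. MAP4K4, which acts downstream of TNF and in the turnover of focal adhesions, lies on chromosome 2 from 101696850 to 101894690. Its CPM values were 171.4, 172.5 and 168.2 in CP+siNC against 266.2, 282.8 and 273.1 in CP+siNAT10. The 3 control libraries of MAP4K4 varied by 1.31% of their mean, where counting error alone gives 1.72%, and all knockdown libraries stood at least 1.54 times above them. The log2 fold change of MAP4K4 was 0.68 ± 0.03, or 1.61-fold.

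**Figure D1:**
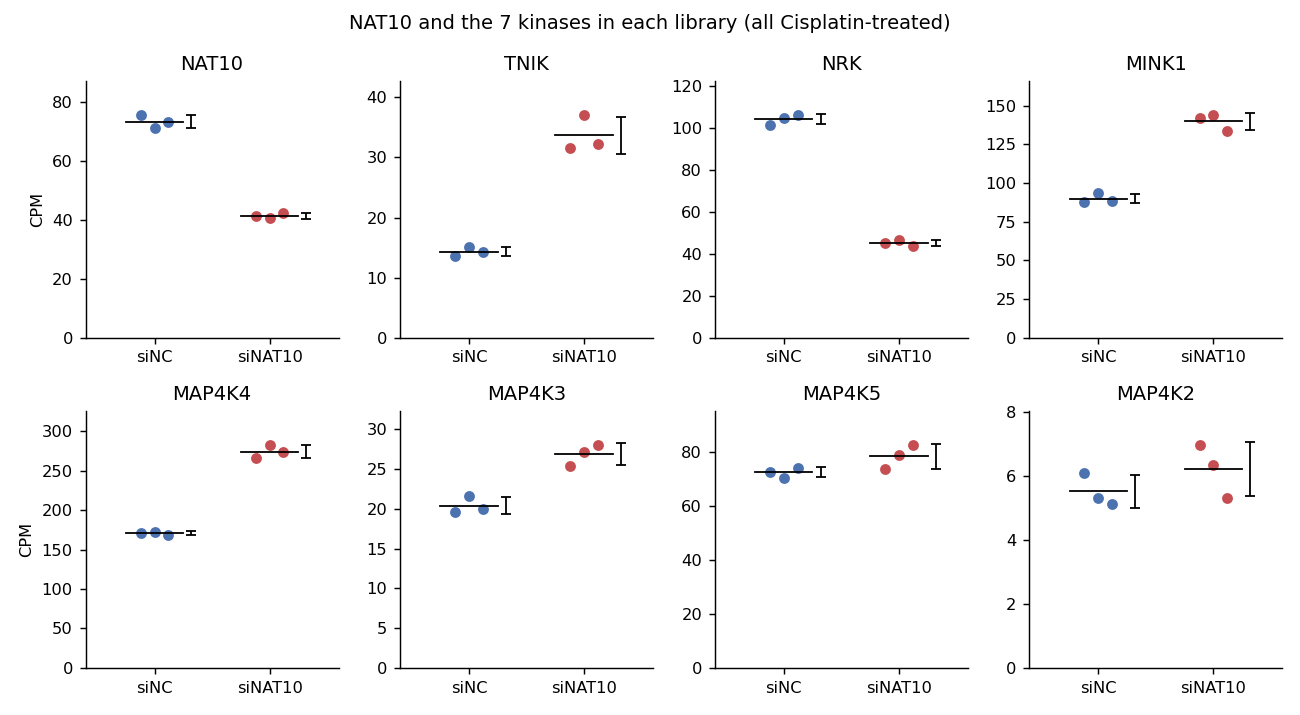
Values of NAT10 and of the 7 kinases in CPM (vertical axis, from 0) in the 3 CP+siNC libraries (blue) and the 3 CP+siNAT10 libraries (red), with the group mean as a line and the SD as a bar beside it. TNIK ran from 13.5 to 15.1 CPM in the controls and from 31.5 to 37.2 CPM in the knockdown, NRK from 101.6 to 106.6 and from 43.8 to 46.8, and the points of the groups overlap for MAP4K5 and MAP4K2.

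MAP4K3, MAP4K5 and MAP4K2 belong to group I, and their differences were smaller. MAP4K3, known for passing amino acid supply on to mTORC1, had 19.6, 21.6 and 19.99 CPM in CP+siNC and 25.4, 27.1 and 28.05 CPM in CP+siNAT10. Its groups were apart by a ratio of 1.18 between the nearest libraries, with a log2 fold change of 0.40 ± 0.06. MAP4K5, which activates JNK in response to TNF receptor signals, had 72.6, 70.4 and 74.0 CPM against 73.4, 78.8 and 82.6 CPM. The groups of MAP4K5 overlapped, since replicate 1 of the knockdown lay below replicate 3 of the controls, and its log2 fold change was 0.12 ± 0.04. MAP4K2, the founding germinal centre kinase, had 6.11, 5.33 and 5.14 CPM against 6.98, 6.36 and 5.33 CPM. Its groups overlapped too, and the log2 fold change of 0.16 ± 0.12 was little larger than its standard error. Without 1 library that value ran from 0.08 (CP+siNAT10 replicate 1 left out) to 0.27 (CP+siNAT10 replicate 3 left out).

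By an edgeR adjusted p under 0.05, 6 of the 7 kinases were called, where 44.1% of all 19874 genes tested were. Of them 5 were higher, against 21.8% of all genes, and 1 was lower, against 22.3%. MAP4K2 was not called. MAP4K5 was no longer called by DESeq2 or glmTreat, nor when any of 4 libraries was left out. Its log2 fold change was then 0.117 and 0.0908 (CP+siNC replicates 1 and 2 left out in turn) or 0.114 and 0.0754 (CP+siNAT10 replicates 2 and 3 left out in turn). With the added limit of a log2 fold change over 1 in size, 2 of 7 were called, TNIK and NRK, where 2.33% of all genes were; TNIK was the 1 higher gene (0.951% of all) and NRK the 1 lower gene (1.38%). The groups of 5 kinases did not overlap, and neither did those of 51.4% of all genes tested. Nothing is read from these counts, because the kinases were chosen with this contrast in view. The median log2 fold change was 0.40 over the 7 kinases and 0.01 over all genes tested, as MAP4K3 lay in the middle of the 7.

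The sizes of the changes can be placed among all genes tested, again as a description. The fold change of TNIK was higher than that of 19802 genes and lower than that of 71, and 139 genes fell further than NRK. MAP4K4 exceeded 92.1% and MINK1 90.6% of all genes in size, whereas MAP4K3 exceeded 76.4%, MAP4K2 41.1% and MAP4K5 30.2%. The exon lengths of the kinases ran from 6056 bases in MAP4K3 to 11958 bases in MAP4K4, longer than those of most genes. Of the 4589 genes tested with an exon length in that range, 33.2% were called higher and 23.2% lower, with a median log2 fold change of 0.06, against 15.8% and 22.4% with a median of -0.02 among 13856 shorter genes. Less the median of the genes of like exon length, an alternative chosen after seeing the data, the log2 fold changes were 1.13 for TNIK, -1.23 for NRK, 0.54 for MINK1, 0.56 for MAP4K4, 0.32 for MAP4K3, 0.06 for MAP4K5 and 0.12 for MAP4K2.

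**Figure D2:**
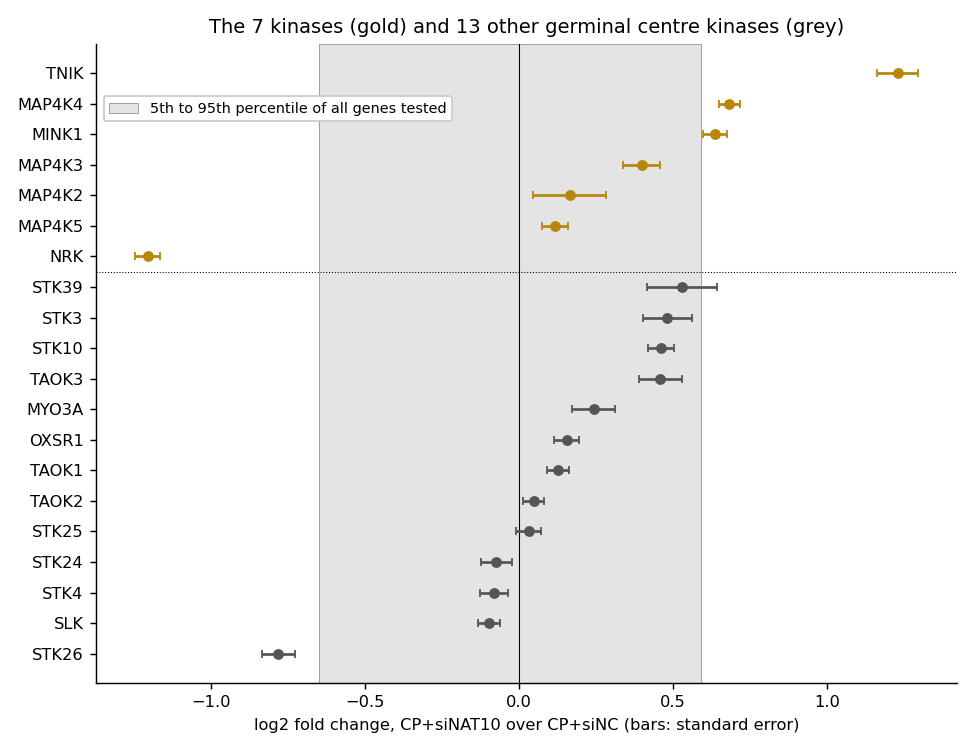
Log2 fold changes of CP+siNAT10 over CP+siNC (horizontal axis, bars give the standard error) for the 7 kinases in gold and for 13 other germinal centre kinases in grey, with the range from the 5th to the 95th percentile of all genes tested shaded (-0.65 to 0.59). TNIK at 1.23, MAP4K4 at 0.68, MINK1 at 0.64 and NRK at -1.205 lie outside the shading, as does STK26 at -0.78 among the other kinases.

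Levels of different genes were compared per length, as CPM per kilobase of the deposited exon length (RPKM). In CP+siNC, MAP4K4 had the highest mean level at 14.3 ± 0.19 RPKM (SD, n = 3). MINK1 at 11.4 ± 0.39 and NRK at 10.9 ± 0.27 RPKM came next, and their ranges touched at 11.14 RPKM, the lowest value of MINK1 and the highest of NRK. MAP4K5 stood at 9.54 ± 0.24 RPKM. A wide step separated these 4 from MAP4K3 at 3.37 ± 0.17, TNIK at 1.25 ± 0.07 and MAP4K2 at 0.723 ± 0.07 RPKM. The median gene tested had 3.02 RPKM, so MAP4K4 stood above 83.2% of the genes tested and TNIK above 30.1%.

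In CP+siNAT10 the order of MAP4K4 at 22.9 ± 0.70 and MINK1 at 17.8 ± 0.72 RPKM at the top was kept. MAP4K5 at 10.3 ± 0.61 RPKM took the place below them, since NRK stood at 4.74 ± 0.16 RPKM. NRK overlapped MAP4K3 at 4.44 ± 0.22 RPKM, while no other neighbours in either order overlapped beyond the touching values of MINK1 and NRK in CP+siNC. TNIK stood below them at 2.94 ± 0.27 RPKM, and MAP4K2 stayed last at 0.814 ± 0.11 RPKM. TNIK then exceeded 49.3% and NRK 60.8% of the genes tested, where NRK had exceeded 78.6% in the controls. The place of NRK depends on the length used. Per kilobase of the longest coding transcript of GENCODE 29, an alternative chosen after seeing the data, MAP4K5 at 16.6 already stood above NRK at 12.95 in CP+siNC, and in CP+siNAT10 MAP4K3 at 6.16 stood above NRK at 5.63, with MAP4K4 at 22.3 and 35.9, MINK1 at 18.1 and 28.2 and TNIK at 2.06 and 4.83 in the respective groups.

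**Figure D3:**
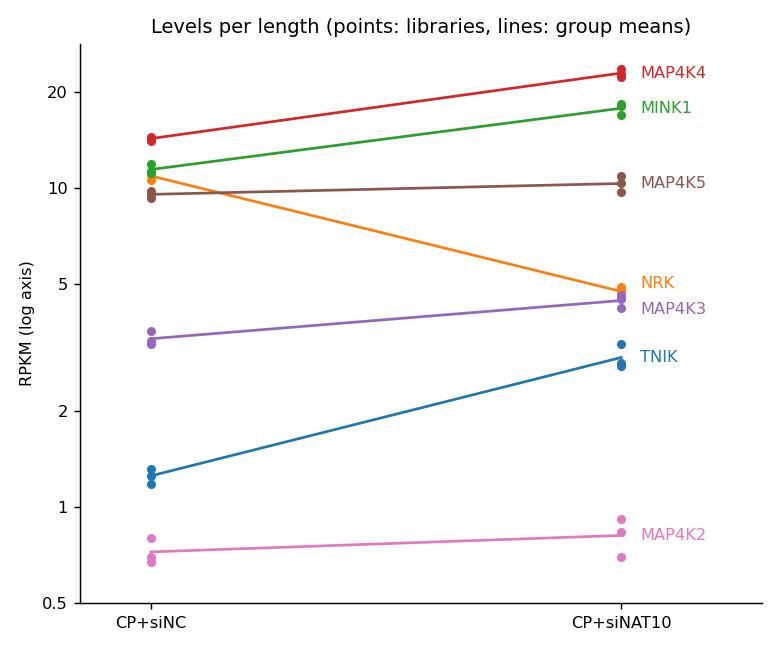
Levels of the 7 kinases in RPKM on a log axis in CP+siNC and CP+siNAT10, with a point per library and a line between the group means. The NRK line falls from 10.9 to 4.74 RPKM and crosses that of MAP4K5, while the TNIK line climbs from 1.25 to 2.94 RPKM.

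The 4 group IV kinases can also be read as parts of a sum. Their RPKM values added up to 37.3, 38.6 and 37.7 in the CP+siNC libraries and to 47.8, 50.1 and 47.2 in the CP+siNAT10 libraries. NRK made up 28.5%, 28.4% and 29.5% of the sum in the controls and 9.92%, 9.75% and 9.70% in the knockdown. TNIK made up 3.17%, 3.42% and 3.32%, then 5.77%, 6.48% and 5.98%. The share of NRK was thus the part that shrank in every knockdown library. Shares of a sum are bound together, so a smaller share of NRK means larger shares elsewhere. The sum itself rose from a mean of 37.85 to 48.36 RPKM. MAP4K4 went from a mean of 37.7% to 47.4% and MINK1 from 30.1% to 36.7%. For each unit of TNIK there were 8.97, 8.32 and 8.90 units of NRK in the controls, and 1.72, 1.51 and 1.62 in the knockdown. The ratio of MAP4K4 to MINK1, by contrast, ran from 1.22 to 1.29 in CP+siNC and from 1.23 to 1.35 in CP+siNAT10, ranges that overlap. All these shares and ratios depend on the length used, here the deposited exon length. Per kilobase of the longest coding transcript of GENCODE 29, NRK stood at 12.95 and TNIK at 2.06 in CP+siNC. In CP+siNAT10 NRK stood at 5.63 and TNIK at 4.83 by that length, which was chosen after seeing the data.

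**Figure D4:**
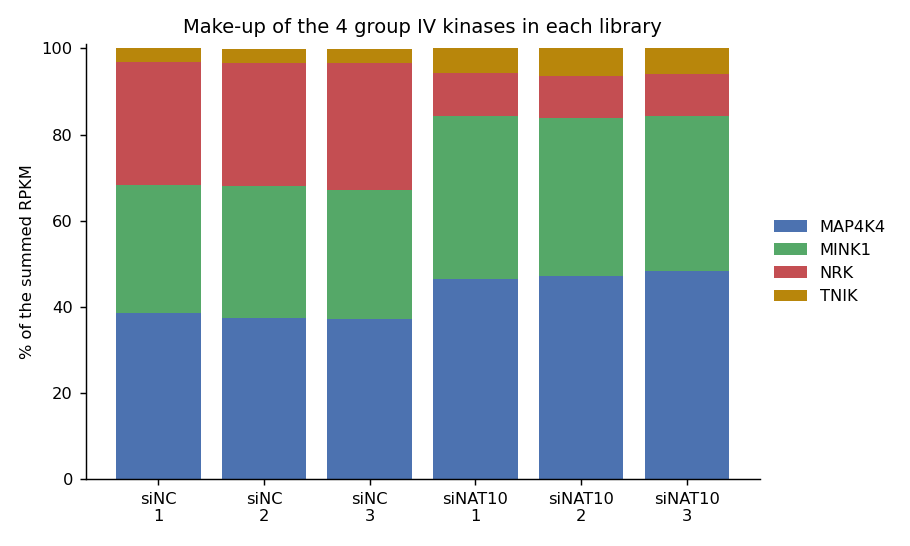
Make-up of the summed RPKM of MAP4K4, MINK1, NRK and TNIK in each of the 6 libraries, as a percentage of the sum from 0 to 100. NRK (red) takes 28.4% to 29.5% in the CP+siNC libraries and 9.70% to 9.92% in the CP+siNAT10 libraries, and TNIK (gold) is the smallest part throughout.

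Apart from MINK1, which lay above it, the control replicates of these kinases varied about as much as counting predicts. Whether the spread differed from counting error, or between the groups, was not tested. In CP+siNC the coefficient of variation over 3 libraries was 5.4% for TNIK, where the mean count alone gives 5.93%, 2.44% for NRK against 2.20%, 3.38% for MINK1 against 2.37%, and 9.29% for MAP4K2 against 9.56%. In CP+siNAT10 it was above counting error for TNIK, at 9.04% against 3.62%, for MINK1, at 4.04% against 1.78%, for MAP4K4, at 3.05% against 1.27%, for MAP4K5, at 5.86% against 2.37%, and for MAP4K2, at 13.4% against 8.44%. NRK at 3.28% against 3.12% and MAP4K3 at 4.98% against 4.04% stayed near it there.

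Reads of related genes could be assigned to the wrong kinase only where their transcripts are alike. No stretch of 50 bases was shared between any of the 7 kinases among their GENCODE 29 transcripts, which gave 8698 such stretches for TNIK and 9563 for NRK. TNIK, NRK, MINK1 and MAP4K3 shared none with a transcript of any other gene either, while MAP4K4 shared 0.216%, MAP4K5 0.234% and MAP4K2 0.715% of theirs. In the count table, 13 other genes overlapped a kinase, and NRK and MAP4K2 had none. TNIK was overlapped by a Y RNA, MIR569 and ENSG00000240497, MINK1 by RN7SL784P and ATP6V0CP1, and MAP4K4 by ENSG00000288948, each with at most 8 counts in any library. MAP4K3 was overlapped by ENSG00000252473 and ENSG00000273035, with at most 2 counts, and by MAP4K3-DT on the opposite strand with 16 to 38 counts. MAP4K5 was overlapped by ENSG00000273675 and a Y RNA with at most 1 count, and on the opposite strand by ATL1 with 93 to 132 counts and ENSG00000259113 with 75 to 110 counts. As a share of the lowest count of the kinase, the highest count of MAP4K3-DT came to 10.3%, that of ATL1 to 9.66% and that of ENSG00000259113 to 8.05%. Log2 fold changes were 0.00 ± 0.25 for MAP4K3-DT, 0.05 ± 0.11 for ATL1 and 0.02 ± 0.13 for ENSG00000259113, and none was called. Whether strand was used in counting is not given in the sources used here, so MAP4K3 and MAP4K5 may hold some reads of these neighbours.

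The nearest tested genes on the chromosome, chosen by position after the values of the kinases were known, numbered 14, of which 3 were called higher and 5 lower, against 21.8% and 22.3% of all genes. ENSG00000279673 lies 0.453 kb from the outer end of the counted TNIK gene, on the other strand, and rose by 0.79 ± 0.14 (edgeR adjusted p = 3.8e-05) from a mean of 2.38 to 4.12 CPM. On the far side of TNIK, EIF5A2 fell by 0.34 ± 0.05 (edgeR adjusted p = 1.82e-06). Beside NRK, RADX at a distance of 653 kb fell by 0.74 ± 0.13 (edgeR adjusted p = 2.54e-05), and FAM199X at 1630 kb had a log2 fold change of -0.05 ± 0.04. IL1R1, 170 kb from MAP4K4, rose by 1.10 ± 0.10 (edgeR adjusted p = 5.53e-10). Beside MINK1, PLD2 and CHRNE had log2 fold changes of 0.10 ± 0.06 and 0.37 ± 0.17, and neither was called. Beside MAP4K5, CDKL1 at 0.31 ± 0.10 and SAV1 at -0.31 ± 0.05 moved further than MAP4K5 at 0.12, and beside MAP4K2, SF1-DT at -1.08 ± 0.38 moved further than MAP4K2 at 0.16 (edgeR adjusted p at most 0.0203 for the 3). The call of CDKL1 was lost without CP+siNC replicate 3 or CP+siNAT10 replicate 3, that of SF1-DT without CP+siNC replicate 1 or CP+siNAT10 replicate 2 or 3, and both with DESeq2 and glmTreat. EIF5A2 and SAV1 lost the call with glmTreat as well. THUMPD2 beside MAP4K3, at -0.19 ± 0.08 (edgeR adjusted p = 0.0425), lost it in 10 alternatives, among them DESeq2 and leaving out any library but CP+siNC replicate 3. SOS1 on the other side of MAP4K3, at 0.05 ± 0.05, CREG2 beside MAP4K4 and MEN1 beside MAP4K2 were not called.

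The genes most like each kinase were found by the Euclidean distance between mean-centred log2 CPM values over the 6 libraries, among genes with a symbol and a mean of at least 5 CPM. With 2 groups of 3 libraries, such likeness rests mainly on the fold change where that is large, as in TNIK and NRK. For MAP4K5 and MAP4K2 the spread between replicates counts as well. Their log2 fold changes were 0.12 and 0.16, with SDs of log2 CPM within groups of 0.0655 and 0.166. Nearest to TNIK were PTPRK, a receptor tyrosine phosphatase (distance 0.149), TPM4, a tropomyosin (0.195), and TLL1 (0.219). PTPRK had 9.83, 11.0 and 10.3 CPM in CP+siNC and 21.0, 24.3 and 22.7 CPM in CP+siNAT10, with replicate 2 of the knockdown the highest, as in TNIK. EID2 (0.0944) and SEC61B (0.109) were near to NRK. MINK1 was followed most closely by PTPRH, PDXDC2P and PDXDC2P-NPIPB14P, at 0.0623 to 0.0652, and MAP4K4 by PFKFB3, RAPGEF2 and FN1, at 0.0471 to 0.0557. CD24 and STXBP5 came near to MAP4K3, while ICE2, DDX55 and SCLT1 came nearest to MAP4K5, and CPEB1, PMS2P3 and CCDC12 to MAP4K2. Among the kinases, MINK1 and MAP4K4 were the closest pair at 0.118, a distance that 30 other genes undercut around MINK1 and 37 around MAP4K4. TNIK and NRK were the pair farthest apart at 2.98.

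The genes that work with these kinases were taken from 6 lists, each described by its counts beside the 44.1% of all genes called. Among 15 other germinal centre kinases, 13 were tested, of which 7 rose and 2 fell, with a median log2 fold change of 0.13. By glmTreat, 4 were higher and 1 lower, where over all 19874 genes tested it called 1319 higher and 1591 lower. The glmTreat counts of the other lists are to be read beside these numbers, not beside the 44.1%. MAP4K1 and the myosin kinase MYO3B, with at most 1 count, were low. STK10 went from 49.4 ± 1.13 to 68.0 ± 2.52 CPM (SD, n = 3) and rose by 0.46 ± 0.04 (edgeR adjusted p = 5.55e-10). TAOK3, a MAP3K-level relative that signals to p38, rose by 0.46 ± 0.07 (edgeR adjusted p = 3.3e-06), and STK3, the Hippo kinase MST2, by 0.48 ± 0.08 (edgeR adjusted p = 1.2e-05). STK26 fell by 0.78 ± 0.05 (edgeR adjusted p = 1.02e-12), from 53.7 ± 1.07 to 31.2 ± 2.90 CPM. The count of falls was 1 without CP+siNC replicate 1 or without CP+siNAT10 replicate 1, and 3 without CP+siNAT10 replicate 2.

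In the JNK cascade downstream, all 32 genes were tested, and 14 rose and 8 fell, with a median of 0.08. The counts with glmTreat were 7 higher and 3 lower. The scaffold gene MAPK8IP2, which holds the kinases of the cascade together, passed both limits at a log2 fold change of 1.47 ± 0.14 (edgeR adjusted p = 6.5e-10). It remained a rare transcript, at 2.20 ± 0.08 CPM in CP+siNC and 6.14 ± 0.67 CPM in CP+siNAT10. Of the MAP3Ks that MAP4Ks can act on, MAP3K6 rose by 0.48 ± 0.05 (edgeR adjusted p = 2.25e-08) and MAP3K9 by 0.38 ± 0.05 (edgeR adjusted p = 1.41e-07), while MAP3K12 fell by 0.60 ± 0.06 (edgeR adjusted p = 2.98e-09).

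Of 11 adaptors and small GTPases that bind the kinases, 3 rose and 5 fell, with a median of -0.08. With glmTreat, 1 was higher and 2 were lower. NCK2, an SH2 and SH3 adaptor of group IV kinases, rose by 0.57 ± 0.09 (edgeR adjusted p = 5.18e-06). RAP2C, a Rap2 GTPase that binds the citron homology domain of TNIK and its relatives, fell by 0.68 ± 0.06 (edgeR adjusted p = 3.88e-10), from 26.5 ± 1.18 to 16.5 ± 0.96 CPM. The adaptor CRK fell by 0.49 ± 0.04 (edgeR adjusted p = 2.94e-11) and RAB8A, a GTPase of the secretory route, by 0.13 ± 0.03 (edgeR adjusted p = 0.0022), a call that glmTreat did not keep.

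STRIPAK is a phosphatase complex that binds germinal centre kinases, MAP4K4 included, and holds them in check. Of its 16 genes 15 were tested, 2 rose and 6 fell, with a median of -0.02, and CTTNBP2 was low. SIKE1 fell by 0.32 ± 0.04 (edgeR adjusted p = 9.71e-07) and the catalytic subunit PPP2CA by 0.21 ± 0.03 (edgeR adjusted p = 5.97e-06). PPP2CB fell by 0.19 ± 0.04 (edgeR adjusted p = 0.000148) and CTTNBP2NL by 0.21 ± 0.04 (edgeR adjusted p = 0.000213). None of these 4 calls held with glmTreat, which asks for more than a 1.2-fold change and called 0 STRIPAK genes higher and 0 lower.

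In the Hippo kinase core, onto which MAP4Ks act through LATS1 and LATS2, 1 of 10 genes rose and 6 fell, with a median of -0.23 against 0.01 over all genes. Of all genes, 21.8% were called higher and 22.3% lower. The counts of this list with glmTreat were 0 higher and 3 lower, against 1319 higher and 1591 lower among all 19874 genes tested. WWTR1, which encodes TAZ, fell by 0.43 ± 0.03 (edgeR adjusted p = 2.53e-11), and the LATS cofactors MOB1A and MOB1B by 0.37 ± 0.04 and 0.39 ± 0.05 (edgeR adjusted p = 4.14e-08 and 7.24e-08). The scaffold WWC2 was the 1 gene of this list that rose, by 0.32 ± 0.04 (edgeR adjusted p = 4.68e-07), a call not kept by glmTreat. LATS1 at -0.07 ± 0.06 and LATS2 at 0.03 ± 0.06 were not called, and STK3 and STK4 were counted among the other germinal centre kinases instead.

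Of 19 Wnt partners and targets of TNIK, 18 were tested, 9 rose and 4 fell, with a median of 0.18, and NOTUM was low. Only 1 was called higher and 1 lower with glmTreat. TCF7L2, the transcription factor that TNIK binds, rose by 0.43 ± 0.09 (edgeR adjusted p = 0.000175) from 9.22 ± 0.61 to 12.5 ± 1.19 CPM. AXIN1, a scaffold of the complex that destroys beta-catenin, rose by 0.44 ± 0.06 (edgeR adjusted p = 3.45e-07). DVL3 rose by 0.23 ± 0.03 (edgeR adjusted p = 3.69e-06) and MYC, a classic target, by 0.20 ± 0.04 (edgeR adjusted p = 9.2e-05). Of these, TCF7L2, DVL3 and MYC lost the call with glmTreat. The 4 genes called lower, named after their values were seen, were RNF43 at -0.70 ± 0.19, SP5 at -0.45 ± 0.16, TCF7 at -0.36 ± 0.09 and CTNNB1, which encodes beta-catenin, at -0.10 ± 0.03. The call of CTNNB1 was lost without CP+siNAT10 replicate 1, at -0.08, with library size scaling only, at -0.06, and without a filter. That of SP5 was lost without CP+siNC replicate 1 or 3 or CP+siNAT10 replicate 2 or 3, at -0.43 to -0.41, and with DESeq2 and without a filter. With glmTreat, SP5, TCF7 and CTNNB1 were not called.

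**Figure D5:**
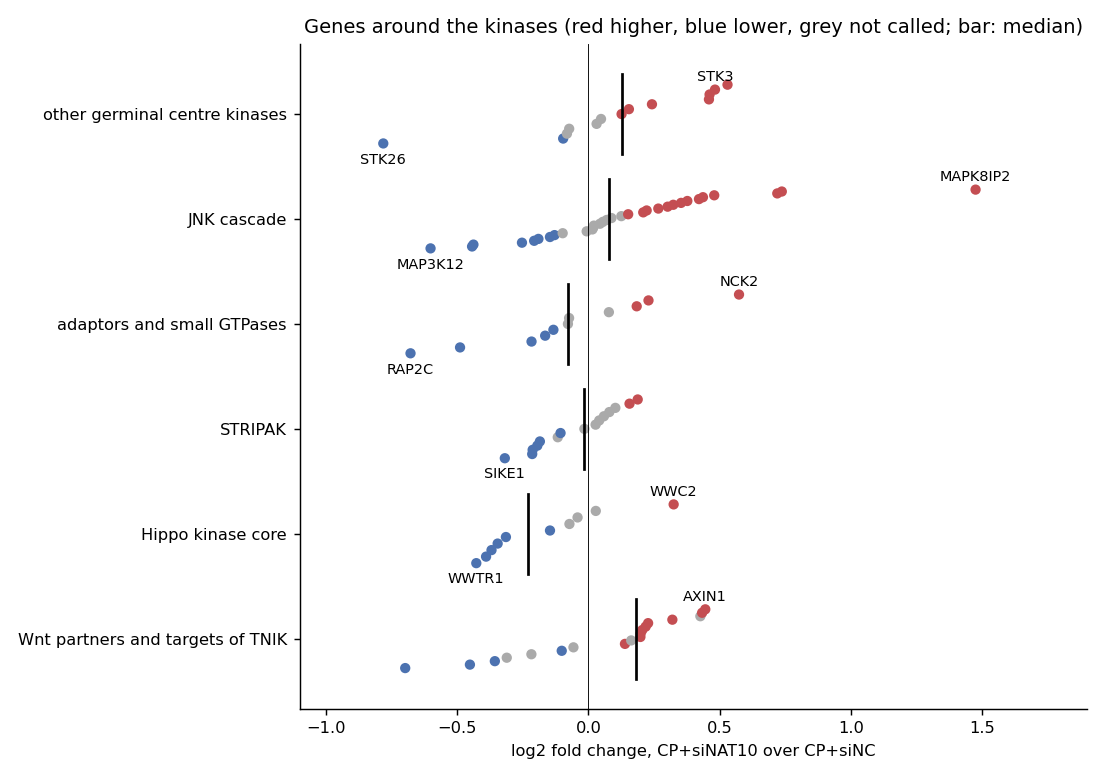
Log2 fold changes of CP+siNAT10 over CP+siNC for the tested genes of the 6 lists, with genes called higher in red, genes called lower in blue, genes not called in grey and the median of each list as a bar. Medians ran from -0.23 in the Hippo kinase core to 0.18 in the Wnt list, and the point at 1.47 is MAPK8IP2.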

How the data were processed

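The authors sequenced Cisplatin-treated HK-2 cells with negative control or NAT10 siRNA and deposited raw counts per gene, with gene positions and lengths. The submitters' processing notes name Trimmomatic 0.36, STAR 2.5.3a, featureCounts of Subread 1.5.1, edgeR 3.12.1 and GRCh38. The study's methods describe molecular identifiers whose purpose is to correct for duplicates; whether reads were merged by them before counting, the annotation and the strand setting are not given in the sources used here. Groups and replicate numbers came from the labels, and dose and time from the study's methods. All 6 sample columns were matched to a label, with 0 left over.

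The comparison used edgeR 4.0.16 and limma 3.58.1 under R 4.3.3. Low counts were removed by filterByExpr at its minimum count of 10 and minimum total of 15. TMM scaling was followed by the quasi-likelihood test, without a replicate term, and p-values were adjusted by Benjamini-Hochberg over the 19874 genes tested. Genes were called at an adjusted p under 0.05, or with a log2 fold change over 1 in size as well. The standard error is the size of the log2 fold change over the root of F. RPKM is CPM over the deposited exon length in kb. Sequences and plots were handled in Python 3.11.15 with pandas 2.3.3 and matplotlib 3.10.9. The fits by edgeR, limma-voom and DESeq2 were checked on simulated counts with the same spread set for every gene. Other steps were not checked in this way. The members and gene lists were chosen with earlier results of these data known.

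Genes named were the members, NAT10, up to 4 genes with the smallest p among those called in each list, every list gene past both limits or filtered as low, up to 3 genes most like each member, and every gene overlapping a member. Nearest neighbours on the chromosome, a few markers, LATS1, LATS2, STK4 and the Wnt list genes called lower were named after their values were seen. Relabelling 3 and 3 libraries exactly cannot give a gene a p below 0.10, so p-values rest on the model across all genes. Alternatives were RLE, upper quartile and library size scaling, other filters, a replicate block, leaving out each library, DESeq2 1.42.0, limma-voom and glmTreat, with 2 more chosen after seeing the data.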

Additional observations from a re-analysis of the deposited data

How the results depend on the processing

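The log2 fold changes of all 7 kinases kept their sign under the 9 alternatives for values and the 6 fits without 1 library. Over the 9 alternatives TNIK ran from 1.13 to 1.27, NRK from -1.23 to -1.17, MINK1 from 0.54 to 0.67, MAP4K4 from 0.56 to 0.72, MAP4K3 from 0.32 to 0.44, MAP4K5 from 0.06 to 0.15 and MAP4K2 from 0.12 to 0.20. Without 1 library the ranges were 1.16 to 1.27 for TNIK, -1.23 to -1.18 for NRK and 0.08 to 0.27 for MAP4K2. Less the median of genes of like exon length, chosen after seeing the data, MINK1 was at 0.54, MAP4K4 at 0.56 and MAP4K3 at 0.32, and MAP4K4 was at 0.72 with library size scaling only; the cause was not tested.

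Over all genes, 8771 were called, and 2910 by glmTreat against a fold change of 1.2 (1319 higher and 1591 lower), which asks for a larger change by its construction. Genes past both limits numbered 464, with 711 without a filter and 201 with the stricter filter, which test more and fewer genes of low count. With glmTreat the genes called higher and lower were 4 and 1 among other germinal centre kinases, 7 and 3 in the JNK cascade, 1 and 2 among adaptors, 0 and 3 in the Hippo core and 1 and 1 in the Wnt list. For STRIPAK glmTreat gave 0 and 0 (0 and 1 at an unadjusted p under 0.05), where DESeq2 gave 2 and 4 and limma-voom 2 and 6. At an unadjusted p under 0.05 glmTreat put 1 Hippo gene higher, as edgeR, DESeq2 and limma-voom did after adjustment. Among other germinal centre kinases 1 gene was lower with library size scaling only, without a filter and by DESeq2, and 1 to 3 were lower without 1 library. With library size scaling only, 4 STRIPAK genes were higher, and without a filter 2 Wnt genes were lower; the cause was not tested. Of 24 list genes named by rule, 9 lost the call with glmTreat and with no other alternative: RAB8A, SIKE1, CTTNBP2NL, PPP2CA, PPP2CB, WWC2, TCF7L2, DVL3 and MYC.

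Deviations of same-numbered libraries from their group means correlated at 0.01, 0.06 and -0.21, and those of differently numbered libraries at -0.217 to 0.198. No pairing by replicate number was seen, but with 3 libraries per group these values cannot exclude it. With a replicate block, 8526 genes were called. Ranked by the longest coding transcript of GENCODE 29, chosen after seeing the data, NRK (12.95) and MAP4K5 (16.6) changed places in CP+siNC and NRK (5.63) and MAP4K3 (6.16) in CP+siNAT10. Protein identity between the kinases and levels by RefSeq coding length were not run, for want of a protein table. MAP4K2 had the fewest counts, with replicates that varied by 9.29% and 13.4% where counting gives 9.56% and 8.44%, and the part of depth in its missing call was not tested.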
